A study of Arabidopsis thaliana with 24 samples.

Results

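The change in the cytokinin response of Arabidopsis thaliana main roots between 4 and 24 h of treatment was followed in 12 of the 24 libraries of the series. These were 3 libraries each of the groups DMSO_4h, BAP_4h, DMSO_24h and BAP_24h, taken by their labels. BAP (6-benzylaminopurine) is a synthetic cytokinin, given here at 1 µM, and DMSO is its solvent and the control. All 4 groups carried the homozygous pANT:XVE>>axr3-1-YFP construct in plants that were 9 d old when transferred. In this line the promoter of ANT, a cambium gene, drives an estradiol-switched transcription factor that in turn expresses axr3-1, a stabilised and therefore auxin-resistant Aux/IAA protein fused to YFP. None of the 12 libraries received estradiol, so the construct was carried but not switched on, and no plants without it entered the comparison. Each library came from segments of the upper main root, in which the cambium was already active. The experiment was run in triplicate at each time, and the 4-h series was a separate repeat of the 24-h one. For this reason the BAP effect was taken within each time against its own DMSO libraries, as a log2 fold change (log2FC). The quantity tested between times was the difference of these effects, (BAP_24h minus DMSO_24h) minus (BAP_4h minus DMSO_4h), called the time term here. A positive term means that the log2FC was higher at 24 h than at 4 h. Anything else that differed between the experiments cannot be told apart from the length of treatment. Examples are the day of the work, the age at harvest and, if it differed, the hour of day at harvest.

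The libraries held 14514022 to 45586679 estimated counts. Ribosomal RNA took 54.1% of DMSO_24h replicate 1 and 32.51% of BAP_24h replicate 1, against 1.05% to 4.843% in the other 10, which left those 2 libraries with 6001669 and 15748246 nuclear counts other than ribosomal RNA. The counts of called terms and late genes are therefore also given without them. All replicate pairs differed by more than sampling noise, with chi-square values of 8.59 to 707.6 per degree of freedom, so each library was counted as its own sample. Of 34212 genes in the table, 21726 passed the filter on low counts and were tested.

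Cytokinins are adenine-derived hormones perceived by membrane histidine kinases (AHK2, AHK3 and AHK4). The signal passes through the AHP phosphotransfer proteins to the type-B response regulators, transcription factors that switch on the primary targets. Among these targets are the type-A response regulators, which dampen the pathway, and the CKX cytokinin oxidases, which break the hormone down. In the root, cytokinin is known for its role in the vascular cambium, the lateral meristem that thickens the root, and for repressing nitrate and iron uptake genes. A primary target can respond within hours, while other changes may follow later. Whether a response was direct was not tested.

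BAP at 4 h raised 2096 genes and lowered 1764 (absolute log2FC of at least 0.5 and edgeR adjusted p of at most 0.05), which is 9.65% and 8.12% of the genes tested. At 24 h it raised 3706 and lowered 3687, or 17.1% and 17%. Most early changes were still present a day into the treatment, since 83.7% of the genes raised at 4 h and 80.8% of those lowered were called in the same direction at 24 h. Seen from 24 h, 47.3% of the raised and 38.7% of the lowered genes had already been called at 4 h. Across the 21726 genes the log2FC values at the 2 times, which share no library, had a Pearson r of 0.723 and a Spearman rho of 0.738, given as a description because genes are not independent.

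The time term was positive for 686 genes (3.16% of those tested) and negative for 795 (3.66%) at an adjusted p of at most 0.05, or 6.82% in either direction. Without the 2 libraries rich in ribosomal RNA these counts were 365 and 444. Leaving out DMSO_24h replicate 2 gave 326 and 438, BAP_4h replicate 2 gave 372 and 423, and BAP_24h replicate 3 gave 401 and 466. The positive count was also more than 1.5 times smaller without BAP_24h replicate 2 (390), BAP_4h replicate 3 (438) or DMSO_4h replicate 3 (453, with 508 negative). Between 49% and 99.3% of the 1481 called genes were called again under each alternative, and none was called in the opposite direction.

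Genes were sorted into time classes by these 3 calls. The sustained class, called in the same direction at both times, was the most numerous called class, with 1754 genes raised and 1426 lowered. Its median log2FC went from 0.77 at 4 h to 1.08 at 24 h among raised genes and from -0.81 to -1.28 among lowered genes. By size the effect was larger at 24 h in 1423 of the 1754 and in 1233 of the 1426, and the term itself was called positive in 207 raised genes and negative in 274 lowered genes. Late genes, called at 24 h and in the term but not at 4 h, numbered 366 raised and 421 lowered. With the replicate number as a block, the late lowered count was 642. Without both libraries rich in ribosomal RNA the late counts were 208 and 230, and without DMSO_24h replicate 2 they were 214 and 224. Without BAP_4h replicate 2 they were 219 and 191, without BAP_24h replicate 2 they were 231 and 272, without BAP_24h replicate 3 they were 240 and 237, and without DMSO_4h replicate 3 they were 230 and 254.

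Early transient genes were few. In 39 genes a 4-h increase, and in 28 a 4-h decrease, was followed by a term called in the opposite direction with no call of the same direction at 24 h. The class thus includes genes, such as AHK4 and EXPA15, with a smaller effect of the same direction left at 24 h. The class medians were 0.97 at 4 h and -0.01 at 24 h for the raised genes, and -0.83 and 0.07 for the lowered genes. These counts rested on single libraries. The raised count was 19 without DMSO_24h replicate 2, 22 and 25 without BAP_24h replicates 3 and 2, 24 without DMSO_24h replicate 3, 25 without DMSO_4h replicate 3 and 62 without DMSO_4h replicate 1. The lowered count was 14 without DMSO_24h replicate 2, 15 without BAP_24h replicate 3 and 18 without BAP_4h replicate 3. A further 20 genes were reversed, 7 from raised to lowered and 13 from lowered to raised. The 7 became 3 without DMSO_24h replicate 2, 4 without BAP_4h replicate 2 or replicate 3 and 12 without DMSO_4h replicate 2, and the 13 became 7 without BAP_4h replicate 3 or DMSO_24h replicate 2 and 20 without DMSO_4h replicate 1. Many calls at a single time could not be placed, since 1573 raised and 1833 lowered at 24 h, and 296 raised and 297 lowered at 4 h, had no called term. For those genes a difference between the times was not detected with 3 libraries a group at these depths.

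**Figure D1:**
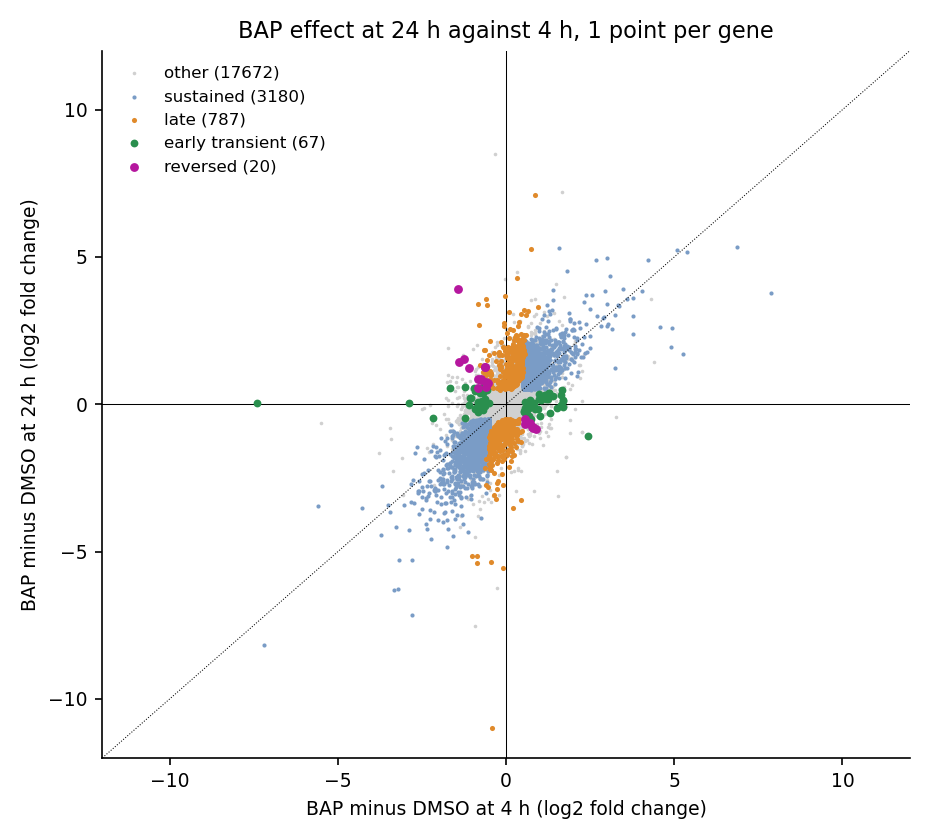
BAP minus DMSO log2 fold change at 24 h (vertical axis) against 4 h (horizontal axis) for the 21726 genes tested, 1 point per gene, coloured by time class; the dotted line marks equal effects. The 3180 sustained genes lie along the diagonal and mostly beyond it at 24 h, the 787 late genes near 0 on the horizontal axis, and the 67 early transient genes near 0 on the vertical axis.

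The control libraries also differed between the 2 experiments, with 1980 genes higher in DMSO_24h than in DMSO_4h (9.11%) and 2089 lower (9.62%). The time term and this control difference share the DMSO libraries, so a shift of the controls enters both. Control differences are therefore given beside many groups of genes, and for further lists here. Higher in DMSO_24h were 6 of 8 greening, 4 of 10 cytokinin removal, 3 of 10 type-A ARR and 3 of 7 PIN genes. So were 7 of 27 Aux/IAA, 6 of 13 alpha-expansin and 4 of 18 aquaporin genes, each list with 1 lower. Lower were 7 of 11 ethylene synthesis, 5 of 12 nitrogen (with 2 higher) and 5 of 12 salicylic acid and defence genes. Among the early transient raised genes the DMSO groups differed in 21 of 39, with 20 higher at 24 h, and among the late raised genes in 136 of 366, with 130 lower at 24 h.

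The primary cytokinin targets were raised at both times. Of the 10 type-A ARR genes, which encode negative feedback regulators, 9 were called higher at 4 h (against 9.65% of all genes) and 8 at 24 h (against 17.1%), and none had a called term (against 6.82% in either direction). Their median log2FC was 1.92 at 4 h and 1.81 at 24 h, against -0.03 and -0.02 over all genes tested. ARR5 (AT3G48100) was read at 108, 37.1 and 62.2 CPM (counts scaled to the effective library size) in the DMSO libraries and 322, 322 and 339 in the BAP libraries at 4 h. At 24 h its values were 61.6, 78.1 and 109 CPM with DMSO and 342, 315 and 371 with BAP. The BAP libraries were close to each other at both times, and the DMSO libraries, all lower, were more spread. The log2FC of ARR5 was 2.25 ± 0.31 (SE) at 4 h and 2.04 ± 0.31 at 24 h, a term of -0.21 ± 0.42 with an adjusted p of 0.824.

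ARR15 (AT1G74890) had the highest 4-h log2FC of the 10, at 3.33 ± 0.19, and 3.37 ± 0.19 at 24 h. It went from 0.768, 0.611 and 0.929 to 7.60, 6.14 and 9.24 CPM at 4 h and from 1.23, 1.22 and 1.51 to 12.7, 14.7 and 14.3 CPM at 24 h. ARR16 (AT2G40670) followed with 3.16 and 2.55, ARR7 with 1.78 and 1.63, ARR4 with 1.57 and 1.13, and ARR6 with 1.16 and 1.07. ARR6 was at 39.1, 12.1 and 15.2 CPM in DMSO_4h and 48.5, 45.8 and 53.7 in BAP_4h, with the groups apart. ARR9 was raised at 4 h (0.76) and had a log2FC of 0.41 at 24 h, under the threshold. ARR3 and ARR17 were near the detection limit. ARR3 had 0.232 to 2.16 CPM with DMSO and 2.11 to 4.77 with BAP at 4 h, where the groups overlapped. ARR17 had a DMSO_24h library at 0 counts, and was at least 3.3-fold higher with BAP at 24 h when each DMSO library was set to a floor of 3 counts.

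ARR8 (AT2G41310) departed from the other 9. It was read at 10597 to 16878 CPM in DMSO_4h and 11656 to 14846 in BAP_4h, more than all other type-A genes together, and at 19942 to 22192 in DMSO_24h and 10114 to 11857 in BAP_24h. Its 24-h log2FC of -0.96 ± 0.17 was called lower, with a term of -0.81 ± 0.24 and an adjusted p of 0.0661. The annotation places another gene, AT2G09250, over the same stretch, so the value of ARR8 is uncertain. When DMSO_4h replicate 1, the library with the highest control values of ARR5, ARR7 and ARR6 at 4 h, was left out, the median term of the list was -0.72 and 3 members were called negative.

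Genes that remove cytokinin stayed raised. Of 10 measured CKX oxidase and UGT glucosyltransferase genes, 7 were called higher at 4 h and 7 at 24 h (against 9.65% and 17.1% of all genes), with none lower. CKX3 went from 1.12, 0.346 and 0.116 to 6.0, 5.35 and 6.07 CPM at 4 h and from 0.545, 0.595 and 0.438 to 7.41, 9.29 and 7.21 CPM at 24 h, log2FC values of 3.49 ± 0.41 and 3.92 ± 0.46. CKX5 had 1.95 and 2.52, CKX2 3.1 and 4.34, and CKX7 0.71 and 1.3, none with a called term. CKX4 (AT4G29740) was the only member with a called term (against 6.82% of all genes). It rose from 14.6, 10.5 and 10.5 to 47.8, 60.6 and 49.1 CPM at 4 h, and at 24 h from 17.9, 25.3 and 22.1 to 41.6, 52.0 and 47.5 CPM. Both gaps were clear of the spread, but the second was smaller, since the DMSO libraries were higher at 24 h while the BAP libraries covered a like range. The term was -1.06 ± 0.22 with an adjusted p of 0.0149.

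Some of the synthesis genes moved the other way. IPT3, IPT5 and IPT7, whose products make the first cytokinin intermediates, were lowered at both times. IPT3, the highest by CPM, had 17.3, 15.1 and 14.9 CPM in DMSO_4h and 2.63, 2.83 and 2.44 in BAP_4h, and 13.5, 17.6 and 16.5 in DMSO_24h and 2.13, 2.17 and 1.93 in BAP_24h. Its log2FC was -2.58 ± 0.12 and -2.95 ± 0.13. IPT5 had -2.37 and -3.25. IPT7 was at 0 counts in a BAP_24h library and was at least 9.89-fold lower than DMSO at that time, with a floor of 3 counts a library. LOG1, which encodes an enzyme releasing active cytokinin, was lowered at both times (-1.12 and -2.00), and LOG7 at 24 h only by call (-0.06 and -0.82, adjusted p of the term 0.077). Over the 12 synthesis genes tested, 1 was called higher and 4 lower at 4 h (against 9.65% and 8.12% of all genes). At 24 h 2 were higher, a share near the 17.1% of all genes, and 6 lower (against 17%). The list had 1 called term, a share near the 6.82% of all genes. There were 4 with the replicate block, 3 without DMSO_4h replicate 1 and 2 without DMSO_4h replicate 3 or DMSO_24h replicate 3, all negative.

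Both CYP735A genes, which encode the hydroxylases that make trans-zeatin, had terms of the same sign. CYP735A1 (AT5G38450) was read at 2.33, 1.67 and 1.39 CPM in DMSO_4h and 2.33, 2.56 and 2.44 in BAP_4h, then at 3.14, 4.06 and 3.31 in DMSO_24h and 1.27, 1.69 and 1.37 in BAP_24h. The groups touched at 4 h and stood apart at 24 h, with BAP lower. Its log2FC of 0.44 ± 0.20 at 4 h and -1.29 ± 0.22 at 24 h gave a term of -1.73 ± 0.30 (adjusted p = 0.00633, or 0.14 with libraries thinned to the lowest nuclear total). CYP735A2 was called higher at both times, with 64.9 to 76.1 CPM in BAP_4h and 24.9 to 34.7 in BAP_24h. Its log2FC was 2.1 and 0.97, with a term of -1.13 ± 0.36 that missed the threshold (adjusted p = 0.0812).

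Among 15 genes of perception and relay, the receptor gene AHK4 (AT2G01830, also WOL) was early transient. It was read at 68.4, 67.4 and 63.7 CPM in DMSO_4h and 134, 131 and 126 in BAP_4h, and at 80.8, 88.6 and 91.9 in DMSO_24h and 108, 115 and 112 in BAP_24h. BAP lay above DMSO in all libraries at both times, and the distance shrank as the controls were higher and the BAP libraries lower at 24 h. The log2FC was 0.97 ± 0.074 at 4 h and 0.36 ± 0.074 at 24 h, a term of -0.61 ± 0.10 (adjusted p = 0.00583). AHK3 had -0.50 and -0.64 and AHK2 -0.45 and -0.25, with the 24-h value of AHK3 called lower. The type-B regulators ARR2 and ARR11 were lowered at both times, with log2FC values of -0.59 and -1.02 for ARR2 and of -1.19 and -1.60 for ARR11. Of the 15 genes 2 were called lower at 4 h (against 8.12% of all genes), or 4 without BAP_4h replicate 2 or DMSO_4h replicate 1. ARR1, ARR10 and ARR12, the type-B regulators with the best known roles in roots, were called at neither time. AHP1 had a called term of -0.72 ± 0.19 (adjusted p = 0.0411) between a log2FC of 0.29 and one of -0.43, and lost that call in 11 of the 12 fits that left out 1 library, with an adjusted p of up to 0.0992.

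Of the 6 CRF genes, a family of AP2/ERF factors partly induced by cytokinin, CRF4 and CRF5 were raised at both times. CRF6 (AT3G61630) was read at 20.4, 29.8 and 18.1 CPM in DMSO_4h and 27.2, 30.4 and 26.9 in BAP_4h. At 24 h it was at 21.9, 21.9 and 21.6 in DMSO and 13.9, 10.8 and 10.09 in BAP, where the groups no longer overlapped and BAP was the lower. Its term was -1.21 ± 0.24 (adjusted p = 0.0111).

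**Figure D2:**
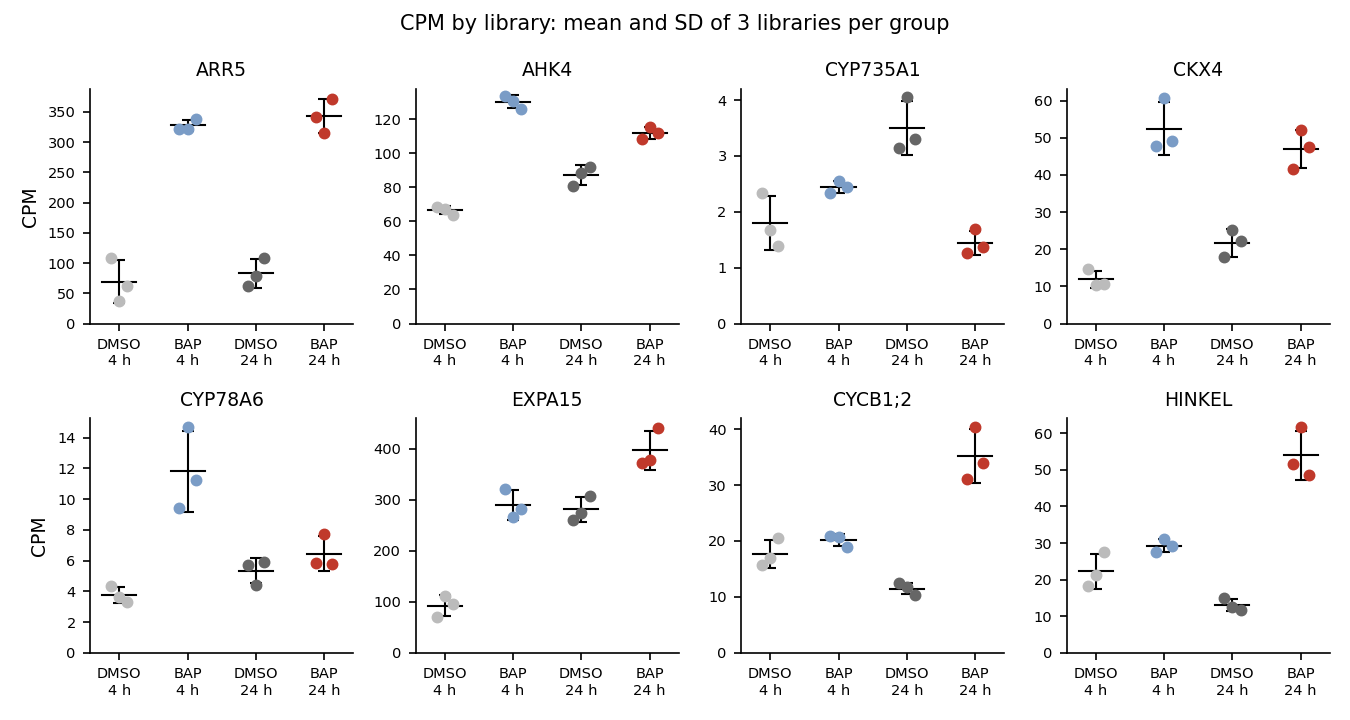
CPM (vertical axes, from 0) of 8 genes in the 12 libraries; each point is a library, the bar the mean and the whisker the SD of 3 libraries. ARR5 was raised at both times, AHK4, CKX4, CYP78A6 and EXPA15 were raised more at 4 h than at 24 h, CYP735A1 was lowered at 24 h, and CYCB1;2 and HINKEL were raised at 24 h.

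Cell-division genes separated by phase. DNA replication genes responded at 4 h and stayed raised, whereas genes of mitosis and cytokinesis responded mainly at 24 h. Of 18 replication genes, 16 were called higher at 4 h and 17 at 24 h (against 9.65% and 17.1% of all genes). None had a called term (against 6.82% in either direction), and the median log2FC was 0.93 and 1.09. Of 24 mitosis genes, 6 were called higher at 4 h and 23 at 24 h, against the same 9.65% and 17.1%. The term was called positive in 19 of these 24, against 3.16% of all genes, and the median log2FC was 0.36 and 1.65. The median terms were 0.14 for replication and 1.3 for mitosis. Without the 2 libraries rich in ribosomal RNA the count of positive terms stayed at 19, and it was 16 to 19 when any single library was left out, 14 with all libraries thinned to the same nuclear depth and 17 with the replicate block. The 4-h count of mitosis genes was 11 without DMSO_4h replicate 3, the highest of the DMSO_4h libraries for most of them.

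The MCM genes encode the replicative helicase. MCM6 (AT5G44635) had 13.3, 13.7 and 13.9 CPM in DMSO_4h, 29.2, 27.5 and 28.3 in BAP_4h, 14.6, 14.2 and 19.4 in DMSO_24h and 33.3, 38.2 and 37.4 in BAP_24h. Both BAP groups were far above both control groups. Its log2FC was 1.05 ± 0.11 and 1.16 ± 0.11, and those of MCM3 were 0.99 ± 0.10 and 1.13 ± 0.10. PCNA1, the sliding clamp of the polymerase, had 1.11 ± 0.11 and 1.42 ± 0.12. The highest 24-h value of the list was that of CDC6, a loader of the helicase, at 1.48 ± 0.15 after 1.02 ± 0.13 at 4 h. ORC1A and FAS2 were the members not called at 4 h, with log2FC values of 0.49 and 0.37.

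HINKEL (AT1G18370), a kinesin needed for cell plate formation, was read at 18.2, 21.2 and 27.6 CPM in DMSO_4h and 27.5, 31.0 and 29.2 in BAP_4h. At 24 h it was at 14.9, 12.6 and 11.8 in DMSO and 51.6, 61.6 and 48.7 in BAP. The highest control reached the BAP range at 4 h, while at 24 h the controls were lower and the BAP libraries higher than all others. The term was 1.68 ± 0.20 (adjusted p = 0.00126). CYCB1;2 (AT5G06150), a cyclin that drives entry into mitosis, had 15.7, 16.9 and 20.5 CPM in DMSO_4h, 20.9, 20.7 and 19.0 in BAP_4h, 12.4, 11.8 and 10.3 in DMSO_24h and 31.0, 40.5 and 34.0 in BAP_24h. Its log2FC was 0.19 ± 0.12 and 1.63 ± 0.13, a term of 1.44 ± 0.17 (adjusted p = 0.00115). The mitotic kinase gene AUR1 (AT4G32830) had the smallest p of the list, with a term of 1.54 ± 0.17 (adjusted p = 8.76e-04). Its 24-h libraries held 5.04 to 6.26 CPM with DMSO and 17.0 to 20.8 with BAP, and its 4-h libraries 7.75 to 8.80 and 9.10 to 10.8.

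The syntaxin gene KNOLLE, which acts in the cell plate, had a term of 1.61 ± 0.20, the spindle factor TPX2 (AT1G03780) one of 1.57 ± 0.26, the anaphase activator CDC20.1 one of 1.50 ± 0.20, and the cyclin CYCB1;1 one of 1.34 ± 0.23. AUR2 and PLEIADE, a microtubule bundling protein, were called higher at 4 h as well, yet had terms of 1.6 and 1.18. The A-type cyclin CYCA2;3 was raised at both times with a term of 0.29 ± 0.21 that was not called. CYCA2;2, with 0.24 and 0.32, was the single member not called at 24 h. Calls were less firm for CDKB1;1, CDKB2;2 and CYCA1;1, whose terms of 0.70, 0.99 and 0.93 were lost in 11, 8 and 9 of the 12 fits that left out 1 library. With the replicate block the adjusted p was 0.0522 for CDKB2;2 and 0.0554 for CYCA1;1.

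**Figure D3:**
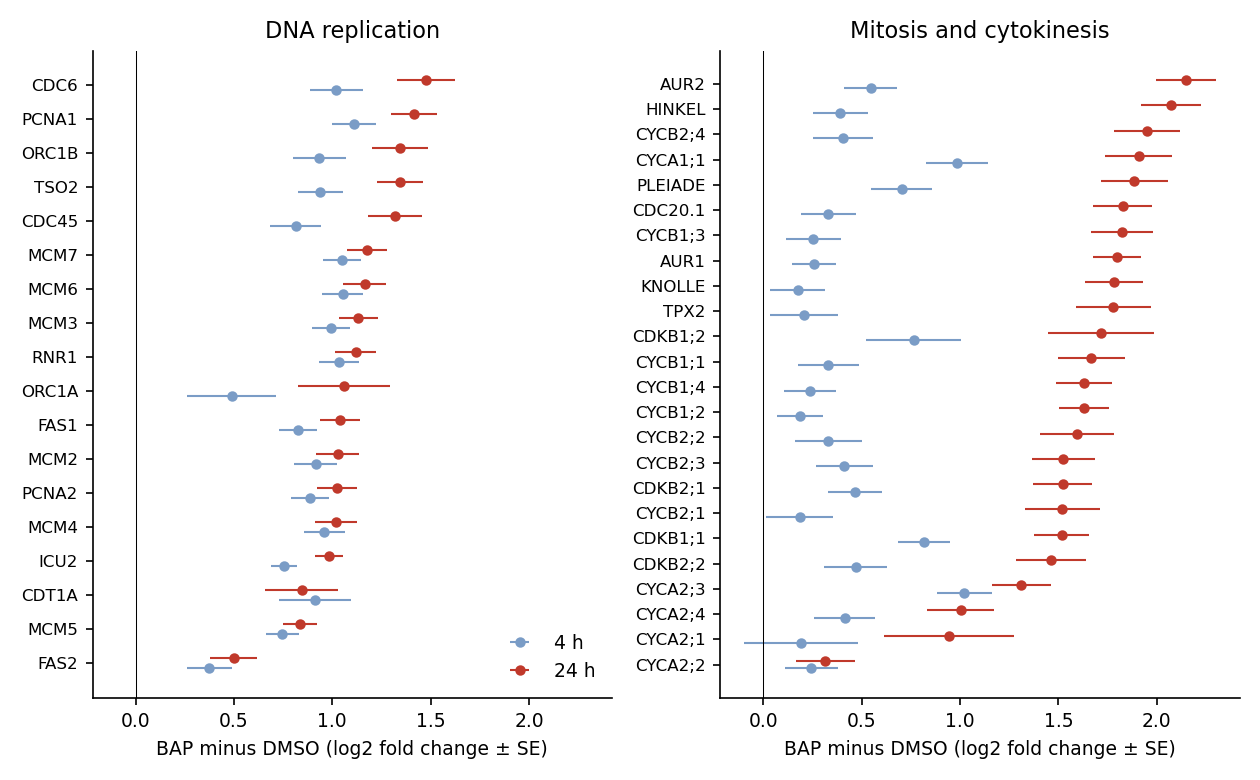
BAP minus DMSO log2 fold change with its SE (horizontal axes) at 4 h (blue) and 24 h (red) for the 18 DNA replication genes (left) and the 24 genes of mitosis and cytokinesis (right), ordered by the 24-h value. The blue and red points lie close together on the left, with a median term of 0.14, and far apart on the right, with a median term of 1.3.

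The controls of the mitosis genes differed between the times. Of the 24 genes, 15 were called lower in DMSO_24h than in DMSO_4h, with a median difference of -0.56, while 1 of the 18 replication genes was called, as higher. The summed level of the 24 genes was 257 to 352 CPM in DMSO_4h, 397 to 424 in BAP_4h, 192 to 251 in DMSO_24h and 607 to 770.0 in BAP_24h, so BAP_24h also exceeded BAP_4h. Fewer dividing cells and less RNA per cell cannot be told apart in these bulk samples. Genes listed as markers of the root tip and of lateral root primordia, which the segments could hold, were low. The 7 genes of that list summed to 17.9 to 22 CPM in DMSO_4h, 21.7 to 26.4 in BAP_4h, 15.4 to 17.9 in DMSO_24h and 34.6 to 43.6 in BAP_24h. Of the 6 tested, 1 was called higher at 4 h and 3 at 24 h (against 9.65% and 17.1% of all genes). The defining root tip genes PLT1, PLT2 and WOX5 stayed at or below 2.16 CPM in all 12 libraries, and most of the sum came from PLT3, PLT5 and PLT7. The study's introduction names AINTEGUMENTA-LIKE factors expressed in the cambium, a family that includes the PLT genes. The sum therefore cannot tell primordia from cambium. PLT3 had a called term of 0.77 ± 0.20, lost in 9 of the 12 fits that left out 1 library. Of 7 root hair and epidermis markers none was called at 4 h (against 9.65% of all genes higher and 8.12% lower). At 24 h 1 was called higher, a share near the 17.1% of all genes. That call was lost without any 1 of 5 of the 6 libraries of 24 h. The part of new primordia in the mitosis result was not tested.

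The promoters of members of both lists are shown because the lists differed in a pair of motifs. Mitotic genes are known to carry the MSA element, whose core AACGG is bound by MYB3R factors, and replication genes are known to carry sites for E2F factors. In the 250 bases before the annotated gene start (RefSeq, TAIR10.1), AACGG or its complement CCGTT was present in 15 of 24 mitosis genes (62.5%), 3 of 18 replication genes (16.7%) and 21.6% of 21481 promoters of the genes tested. At least 2 copies were present in 10 of the 24 (41.7%) and in 3.97% of all. Among the 366 late raised genes 361 had a promoter and 35.5% of these held the core, or 33.8% outside the mitosis list. E2F sites, searched on both strands as TTTCCCGC, TTTCGCGC, TTTGGCGC or TTTGCCGC, were present in 9 of 18 replication genes (50%), no mitosis gene and 1.49% of all promoters. They were in 4.34% of the sustained raised genes and 1.39% of the late raised genes. The cytokinin-linked motif AGATACG was in none of the 10 type-A ARR promoters at this length and in 1.67% of all. A match is a string of letters in this window, not a bound site. The promoters below belong to the mitosis genes with the smallest p of the term and to the replication genes with the largest 4-h effect among those holding an E2F site, written 5′ to 3′ on the strand of the gene, with matches in capitals. AUR1 lies at chr4:15842193-15842442, plus strand, CYCB1;2 at chr5:1861704-1861953, minus strand, HINKEL at chr1:6324379-6324628, minus strand, MCM6 at chr5:18010668-18010917, minus strand and MCM3 at chr5:18773707-18773956, minus strand.
AUR1: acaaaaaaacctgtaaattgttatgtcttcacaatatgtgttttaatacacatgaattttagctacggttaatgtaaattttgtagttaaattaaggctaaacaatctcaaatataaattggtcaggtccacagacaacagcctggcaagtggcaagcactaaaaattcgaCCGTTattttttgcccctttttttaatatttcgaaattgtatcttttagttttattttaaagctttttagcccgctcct
CYCB1;2: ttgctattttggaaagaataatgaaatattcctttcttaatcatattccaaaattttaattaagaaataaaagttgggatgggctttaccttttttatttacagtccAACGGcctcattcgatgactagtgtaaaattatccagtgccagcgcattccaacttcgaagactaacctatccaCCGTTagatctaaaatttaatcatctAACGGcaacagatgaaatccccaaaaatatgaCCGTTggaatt
HINKEL: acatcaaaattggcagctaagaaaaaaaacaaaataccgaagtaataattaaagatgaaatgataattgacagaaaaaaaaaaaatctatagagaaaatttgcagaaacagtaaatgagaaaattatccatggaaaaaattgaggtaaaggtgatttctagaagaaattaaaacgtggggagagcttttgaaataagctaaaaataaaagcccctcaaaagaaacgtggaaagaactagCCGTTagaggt
MCM6: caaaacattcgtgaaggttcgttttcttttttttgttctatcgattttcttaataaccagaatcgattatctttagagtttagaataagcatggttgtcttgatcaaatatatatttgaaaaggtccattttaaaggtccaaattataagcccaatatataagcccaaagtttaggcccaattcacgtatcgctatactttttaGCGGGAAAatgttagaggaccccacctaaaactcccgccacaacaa
MCM3: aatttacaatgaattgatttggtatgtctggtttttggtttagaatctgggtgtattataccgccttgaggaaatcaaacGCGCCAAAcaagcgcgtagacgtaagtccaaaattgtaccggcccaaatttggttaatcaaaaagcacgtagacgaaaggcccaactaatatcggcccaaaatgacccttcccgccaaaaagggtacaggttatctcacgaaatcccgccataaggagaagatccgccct

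The CYCB1;2 promoter held 4 copies of the core within its window, while those of AUR1 and HINKEL held 1 each. D-type cyclins, which act before replication, had no called term among 9 tested (against 6.82% of all genes). CYCD3;1, a cyclin known to respond to cytokinin, was raised at both times, with log2FC values of 0.82 ± 0.15 and 0.71 ± 0.15. CYCD6;1 and CYCD4;1 were called at 24 h only (1.08 and 0.81), with terms of 0.60 ± 0.27 and 0.71 ± 0.29 that were not called.

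Of 28 cambium regulators tested, 9 were called higher at 4 h (against 9.65% of all genes) and 8 at 24 h (against 17.1%), with 1 lower at 24 h, and 2 had a called term, a share near the 6.82% of all genes (1 without both libraries rich in ribosomal RNA). The median log2FC was 0.30 and 0.31. ANT (AT4G37750), whose promoter also drives the construct, had 57.8, 76.9 and 91.3 CPM in DMSO_4h, 132, 109 and 131 in BAP_4h, 99.0, 91.8 and 124 in DMSO_24h and 196, 232 and 236 in BAP_24h. BAP was above DMSO in all libraries at both times, and its log2FC was 0.72 ± 0.16 and 1.07 ± 0.16. LBD3 had 1.55 and 1.27, PTL 0.94 and 0.84 and the TDIF peptide gene CLE44 0.74 and 0.94, all called higher at both times. PXY, the TDIF receptor, and WOX4, its downstream homeobox gene, were not called at either time, with 24-h log2FC values of 0.18 and 0.42.

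Both called terms were negative. LBD4 (AT1G31320), which marks the phloem side of the procambium, had 11.3, 15.1 and 12.1 CPM in DMSO_4h and 39.96, 41.7 and 35.4 in BAP_4h, and 17.3, 29.8 and 32.2 in DMSO_24h and 40.6, 39.8 and 37.8 in BAP_24h. The BAP groups were nearly equal, and it was the controls that were higher at 24 h. Its term was -1.06 ± 0.24 (adjusted p = 0.0238), lost in 6 of the 12 fits that left out 1 library. DOF1.6 (AT1G47655), a DOF transcription factor, was at 2.75, 3.83 and 3.48 and 6.04, 5.49 and 6.34 CPM at 4 h and at 8.72, 8.85 and 11.3 and 9.59, 9.41 and 11.2 CPM at 24 h, in each case DMSO before BAP. The groups were apart at 4 h and overlapped at 24 h, with a term of -0.77 ± 0.20 (adjusted p = 0.042) that was lost in 11 of the 12 fits. Both are among 12 of the 28 genes that were called higher in DMSO_24h than in DMSO_4h, none being lower.

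Several other factors that the study names in connection with the cambium were called at a single time, with no called term. TINY2, an AP2/ERF factor, was called at 4 h (1.09, then 0.39), and CLE42, a TDIF-like peptide gene, likewise (0.53 and -0.09). PXC1, a receptor kinase linked to secondary walls, and ERF072 were called higher at 24 h (0.82 and 0.74, after 0.34 and 0.25), while the PXY-like kinase gene PXL1 was called lower (-0.57 after -0.06), a call lost without BAP_24h replicate 2, BAP_24h replicate 3 or DMSO_24h replicate 2. Sustained among the factors the study names outside these lists were ESE3, an AP2/ERF factor (2.11 and 1.72), IDD2, a zinc finger factor (0.98 and 0.69), the peroxidase gene AT2G18150 (0.80 and 1.19) and the zinc finger gene AT1G68360 (0.78 and 0.61). NAC099 was called at 4 h only (0.63 and 0.29). WLIM1, HB-12, AT5G57150, AT5G10970 and AT2G40200 were called at neither time.

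Auxin genes of the Aux/IAA family split into responders and non-responders that were largely shared by the times. Of 27 tested, 7 were called higher at each time, against 9.65% of all genes at 4 h and 17.1% at 24 h. Lower calls, at 2 of 27 at 4 h and 3 at 24 h, were not above the 8.12% and 17% of all genes, and 1 was left at 4 h without DMSO_4h replicate 2. AXR3 (AT1G04250), the gene from which the axr3-1 transgene derives and whose reads cannot be told from those of the transgene, was read at 50.5, 47.4 and 47.9 CPM in DMSO_4h and 158, 151 and 172 in BAP_4h. At 24 h it had 69.0, 69.5 and 76.4 in DMSO and 212, 196 and 204 in BAP. The groups were far apart at both times, with log2FC values of 1.72 ± 0.081 and 1.51 ± 0.081 and a term of -0.21 ± 0.11 that was not called. SHY2 (AT1G04240), a repressor through which type-B ARRs act on the root meristem, was the only family member with a called term (against 6.82% of all genes). It rose from 20.4, 23.8 and 21.8 to 63.6, 53.7 and 65.0 CPM at 4 h and from 50.7, 55.1 and 58.8 to 102, 95.7 and 104 CPM at 24 h. The BAP groups and the control groups were both higher at 24 h, the controls by more, and the term was -0.59 ± 0.13 (adjusted p = 0.021). It was lost without BAP_24h replicate 2 (adjusted p = 0.0533), BAP_4h replicate 3 (0.0511) or DMSO_24h replicate 2 (0.0516).

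Among 8 auxin-induced GH3 and LBD genes, none was raised, 2 were lowered at 4 h and 5 at 24 h (against 8.12% and 17% of all genes). The 24-h count was 1 without DMSO_24h replicate 2 and 2 without BAP_24h replicate 2. LBD16 and LBD33, factors of lateral root initiation, were lowered at both times, LBD16 with log2FC values of -2.63 and -2.94. GH3.5 was the only member with a called term (against 6.82% of all genes). Its term of -0.96 ± 0.26 was lost in 9 of the 12 fits and had an adjusted p of 0.0684 with the replicate block. Of 7 PIN auxin transporters, PIN6 was raised at 4 h (0.75), and its 24-h log2FC of 0.50 lay at the threshold, where the call was lost in 5 of the 12 fits that left out 1 library. PIN5 (AT5G16530), which resides in the endoplasmic reticulum, was at 19.6, 23.5 and 26.1 CPM in DMSO_24h and 7.92, 14.3 and 11.7 in BAP_24h, after values of 21.0 to 21.2 and 19.5 to 22.1 at 4 h. Its groups overlapped at 4 h and it was lower with BAP in all libraries at 24 h, a term of -1.03 ± 0.23 (adjusted p = 0.0196, or 0.0518 without DMSO_24h replicate 2). No other PIN gene had a called term (against 6.82% of all genes). Ethylene synthesis genes had no called term among 11, against 6.82% of all genes. ACS2 was raised at both times (1.70 and 2.12), and the oxidase genes ACO4 and ACO5 were lowered at both times.

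Of 12 genes of xylem and secondary walls none was called at 4 h and 3 were lower at 24 h (against 17% of all genes), or 1 without DMSO_24h replicate 2. At 4 h, 1 was called higher without BAP_4h replicate 1 or DMSO_4h replicate 3. The list had median log2FC values of 0.08 and -0.24. XCP1 and XCP2, cysteine proteases of dying vessel cells, had negative terms of -0.46 ± 0.12 and -0.52 ± 0.13. They were the 2 members with a called term (against 6.82% of all genes). XCP2 was at 88.3 to 104 CPM in DMSO_24h and 58.2 to 68.9 in BAP_24h, and at 86.7 to 101 and 90.7 to 94.2 CPM at 4 h. Neither term was called without both libraries rich in ribosomal RNA. Both calls were marginal, being lost in 11 and 8 of the 12 fits that left out 1 library, and that of XCP1 also with the replicate block (adjusted p = 0.0532). All 3 secondary wall cellulose synthase genes, CESA4, CESA7 and CESA8, had small negative terms of -0.37, -0.41 and -0.38 that were not called. Phloem genes had no called term among 11 (against 6.82% of all genes), and PP2-A1, a phloem protein gene, was lowered at both times (-0.54 and -0.97).

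Of 12 suberin genes 8 were called higher at each time (against 9.65% of all genes at 4 h and 17.1% at 24 h). At 24 h the count was 2 without both libraries rich in ribosomal RNA, 4 without DMSO_24h replicate 2 and 5 without BAP_24h replicate 1. At 4 h it was 5 without BAP_4h replicate 1 or DMSO_4h replicate 3. The list had medians of 0.66 and 0.60 and no called term in the fit of 12 libraries, or 2 negative terms without DMSO_4h replicate 1. FAR5, which encodes a fatty acyl reductase, was highest with 1.82 ± 0.16 and 1.22 ± 0.16. In the controls 8 of the 12 were higher at 24 h. Of 13 alpha-expansins, wall-loosening proteins, 7 were raised at 4 h and 5 at 24 h, against the same 9.65% and 17.1%. EXPA8 rose from 0.502, 0.754 and 0.319 to 6.94, 4.40 and 5.51 CPM at 4 h and from 1.36, 1.68 and 4.46 to 24.1, 32.5 and 26.1 CPM at 24 h. Its log2FC of 3.37 ± 0.38 and 3.34 ± 0.33 was nearly the same while its level was several times higher at 24 h. EXPA15 (AT2G03090) was early transient. It had 70.7, 112 and 95.2 CPM in DMSO_4h and 322, 266 and 282 in BAP_4h, and 261, 275 and 308 in DMSO_24h and 372, 379 and 442 in BAP_24h. BAP stayed above DMSO, but the 24-h controls had already reached the level of BAP at 4 h, and the term was -1.15 ± 0.21 (adjusted p = 0.00821).

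**Figure D4:**
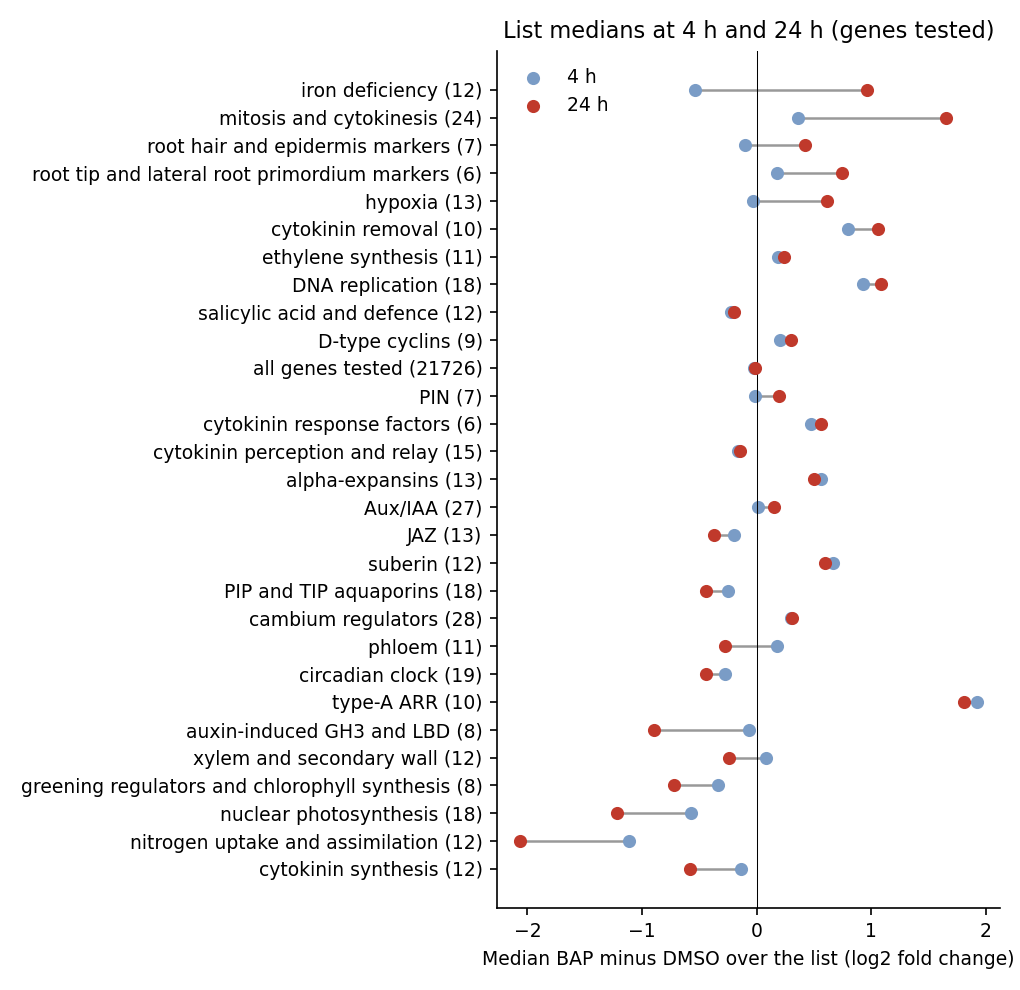
Median BAP minus DMSO log2 fold change (horizontal axis) at 4 h (blue) and 24 h (red) over each gene list, with the number of genes tested in parentheses, ordered by the median time term. Type-A ARR and DNA replication genes lie near the same value at both times, mitosis genes move from 0.36 to 1.65 and nitrogen genes from -1.12 to -2.06.

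Iron genes gave the most divided pattern. Of 12 genes of iron deficiency tested, 2 were called lower at 4 h (against 8.12% of all genes) and none higher. At 24 h 6 were higher and 4 lower (against 17.1% and 17%). The term was called positive in 4 and negative in 4 (against 3.16% and 3.66%). Without DMSO_4h replicate 1 the lowered count at 4 h was 5, without DMSO_4h replicate 3 it was 4, and without BAP_4h replicate 1 or replicate 3 it was 1. On the falling side were the genes of iron uptake at the root surface. IRT1 (AT4G19690), the iron transporter, had 9.80, 2.75 and 3.17 CPM in DMSO_4h and 2.05, 3.51 and 2.24 in BAP_4h, then 25.2, 16.2 and 21.9 in DMSO_24h and 0.558, 0.563 and 0.613 in BAP_24h. The groups overlapped at 4 h, while at 24 h the controls were the highest of all and BAP the lowest. Its term was -4.15 ± 0.70 (adjusted p = 0.00562). FRO2 (AT1G01580), the ferric chelate reductase, had 19.9, 13.7 and 17.0 CPM in DMSO_24h and 1.32, 1.73 and 1.27 in BAP_24h, after 4.61, 1.18 and 1.07 and 1.92, 3.44 and 2.50 at 4 h. As with IRT1, the groups overlapped at 4 h only, and the term was -3.72 ± 0.66 (adjusted p = 0.00708).

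FIT (AT2G28160), the bHLH factor that activates both, was lowered at each time. It fell from 42.5, 37.4 and 29.7 to 12.6, 12.9 and 10.3 CPM at 4 h and from 26.4, 28.6 and 30.4 to 2.28, 4.91 and 3.21 CPM at 24 h, a term of -1.41 ± 0.28 (adjusted p = 0.0122). FER1, which encodes the iron store ferritin and is induced by iron excess, was at 144, 112 and 103 CPM in DMSO_24h and 32.1, 28.8 and 34.0 in BAP_24h, with 42.8 to 72.5 and 47.1 to 62.6 at 4 h, and its term was -1.78 ± 0.26 (adjusted p = 0.00271). An overlapping antisense locus, AT5G01595, holds a near-identical sequence, so its reads may be shared.

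On the rising side were other genes of the iron deficiency list, to which the lowered uptake genes also belong. AT1G47400, annotated as an uncharacterised protein gene, had 2.36, 9.05 and 7.67 CPM in DMSO_4h, 3.19, 5.08 and 4.57 in BAP_4h, 0.409, 1.82 and 2.19 in DMSO_24h and 19.3, 22.7 and 20.6 in BAP_24h. Its neighbour AT1G47395 had 1.36, 3.67 and 5.02 CPM in DMSO_24h and 32.8, 44.8 and 39.2 in BAP_24h, and AT2G30766 was at 10.2 to 15.2 CPM in BAP_24h and at or below 0.14 in all 9 other libraries. BAP_24h stood above all other libraries for each of the 3. The terms were 4.19 ± 0.59 (adjusted p = 0.0023) and 3.95 ± 0.53 (0.00183) for the first pair, while AT2G30766 had no called term (adjusted p = 0.971). With so few reads at 4 h its 4-h ratio is not defined well enough for the term to show a like effect at both times. BHLH38 (AT3G56970), a partner of FIT, rose from 0.818, 0.21 and 0.319 to 4.26, 3.82 and 3.16 CPM at 24 h, a term of 4.24 ± 0.64 (adjusted p = 0.00306). OPT3, a phloem transporter for iron and copper, went from 10.09, 22.8 and 18.4 to 56.0, 61.5 and 53.6 CPM at 24 h, against 21.5 to 49.6 and 21.1 to 34.8 at 4 h, with a term of 2.17 ± 0.43 (0.012). In the controls 4 of the 12 genes were called higher and 4 lower at 24 h, and the list kept its 4 positive and 4 negative terms without the 2 libraries rich in ribosomal RNA.

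Nitrogen genes were lowered early and further at 24 h. Of 12 genes of nitrogen uptake and assimilation, 9 were called lower at 4 h and 11 at 24 h (against 8.12% and 17% of all genes), none higher. The median log2FC values were -1.12 and -2.06. A called negative term was held by 5 (against 3.66% of all genes), or 3 without BAP_4h replicate 2. AMT1;3 (AT3G24300), an ammonium transporter, fell from 112, 109 and 92.6 to 48.8, 55.6 and 47.9 CPM at 4 h and from 135, 169.6 and 173 to 16.5, 27.2 and 26.1 CPM at 24 h. Controls were higher and BAP libraries lower at 24 h, and the term was -1.73 ± 0.23 (adjusted p = 0.00179). AMT1;2, of the same family, was not called at 4 h (-0.37) and was at 11.9 to 19.3 CPM against 69.4 to 100.4 at 24 h, a term of -1.96 ± 0.34 (0.00694). NRT1.5 (AT1G32450), which loads nitrate into the xylem, had 356, 325 and 223 and 113, 127 and 114 CPM at 4 h and 629, 499.7 and 287 and 63.3, 44.2 and 49.6 CPM at 24 h, DMSO before BAP. Its groups were apart at each time, with a term of -1.82 ± 0.35 (0.011). NRT3.1, a partner protein of the high-affinity nitrate transporters, had a term of -0.98 ± 0.22, which missed the threshold without BAP_4h replicate 2 (adjusted p = 0.0537). NRT1.1, the nitrate transceptor, had the largest 4-h decrease of those with a called term (-2.28, then -3.02), and its term of -0.75 ± 0.21 was lost in 11 of the 12 fits that left out 1 library.

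The high-affinity transporter NRT2.1 and the reductases were lowered at both times and had no called term. NRT2.1 went from 284, 288 and 253 to 55.0, 54.4 and 50.8 CPM at 4 h and from 94.2, 113 and 118 to 8.12, 26.6 and 12.4 CPM at 24 h, log2FC values of -2.36 ± 0.29 and -2.78 ± 0.31. Its controls were themselves lower at 24 h. NIA1 and NIA2, the nitrate reductases, had 4-h values of -1.57 and -1.19 and 24-h values of -0.92 and -0.70, with positive terms that were not called.

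**Figure D5:**
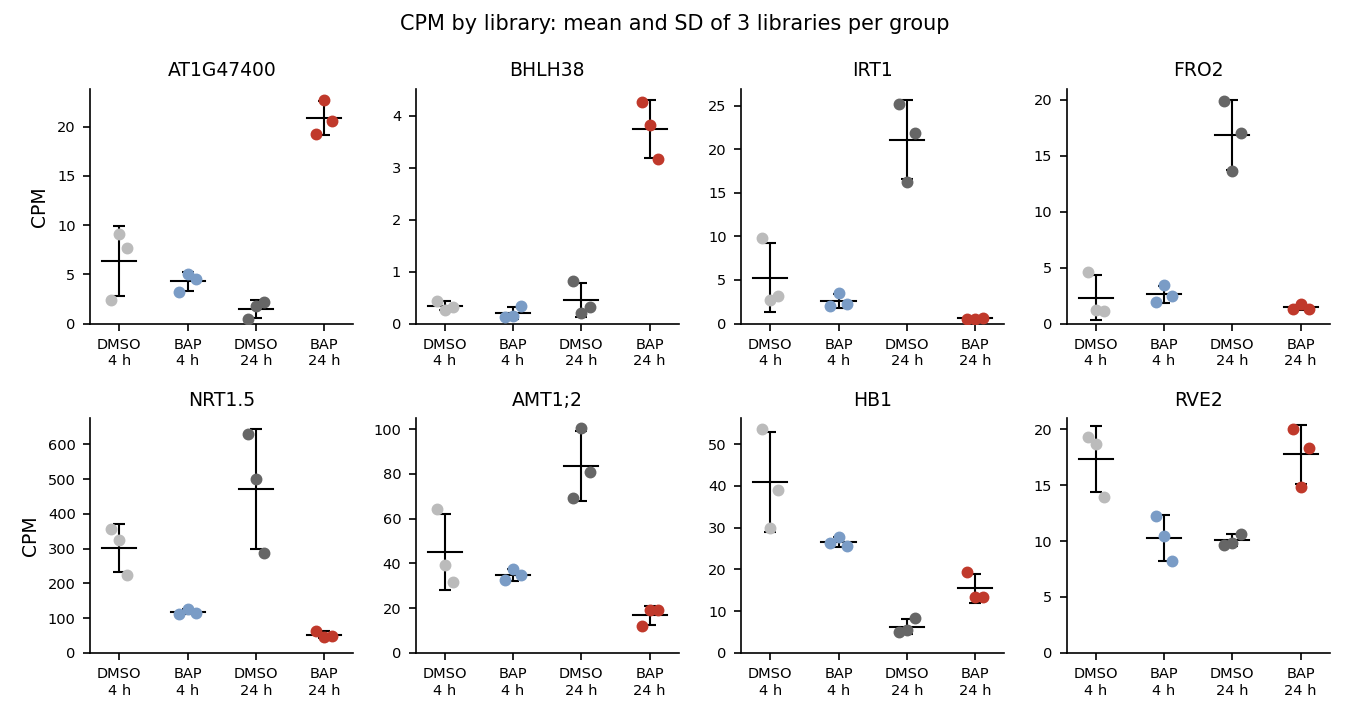
CPM (vertical axes, from 0) of 8 genes in the 12 libraries; each point is a library, the bar the mean and the whisker the SD of 3 libraries. AT1G47400 and BHLH38 were high in BAP_24h only, IRT1 and FRO2 in DMSO_24h only, NRT1.5 and AMT1;2 were lowest in BAP_24h, and HB1 and RVE2 were lowered at 4 h and raised at 24 h.

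Of 18 aquaporin genes, 8 were called lower at each time (against 8.12% of all genes at 4 h and 17% at 24 h), 1 was higher at 4 h and 2 at 24 h. The higher count at 24 h was 5 without DMSO_24h replicate 2, and at 4 h it was 0 without BAP_4h replicate 3 and 2 without BAP_4h replicate 1 or DMSO_4h replicate 3. The term was called positive in 3 and negative in 3 (against 3.16% and 3.66% of all genes). A single positive call was left when any 1 of BAP_24h replicates 1 and 3, the 3 BAP_4h libraries or the 3 DMSO_24h libraries was taken out. The same held without both libraries rich in ribosomal RNA. TIP2;2 (AT4G17340), a tonoplast channel, fell from 113, 73.7 and 65.4 to 36.6, 32.7 and 21.1 CPM at 4 h and from 84.1, 83.5 and 74.0 to 8.22, 5.31 and 4.34 CPM at 24 h. The gap widened well beyond the spread, with a term of -2.29 ± 0.36 (adjusted p = 0.00387). PIP1;5 fell at 24 h only by call, with a term of -0.83 ± 0.17 (0.0139). PIP2;7 (AT4G35100), a plasma membrane channel, moved oppositely, with 119.7, 127 and 113 CPM in DMSO_24h and 289, 288 and 308 in BAP_24h after 116 to 163 and 162 to 180.2 at 4 h, a term of 0.99 ± 0.16 (0.00504). The calls of PIP1;1 (-0.83), PIP1;3 (0.64) and TIP1;1 (0.89) were lost in 7, 10 and 10 of the 12 fits that left out 1 library, and that of TIP1;1 with the replicate block too (adjusted p = 0.0624). PIP genes are close paralogues, so reads may be split among them.

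Nuclear photosynthesis genes were lowered at 4 h in 12 of 18 and at 24 h in all 18 tested, with medians of -0.57 and -1.22 (against 8.12% and 17% of all genes lowered). The 4-h count rested on single libraries, being 3 without BAP_4h replicate 1 or DMSO_4h replicate 2, 4 without DMSO_4h replicate 3 and 6 without BAP_4h replicate 2. None had a called term (against 6.82% of all genes), while 6 of the 18 had a negative one with the replicate block. In the controls 8 of them were higher at 24 h, and the summed level of the 21 genes listed was 865 to 1349 CPM in DMSO_4h, 658 to 859 in BAP_4h, 1609.6 to 1795 in DMSO_24h and 516 to 826 in BAP_24h. LHCB1.3, which has near-identical copies and may share reads with them, had log2FC values of -0.98 ± 0.22 and -1.76 ± 0.23. Of 8 greening regulators and chlorophyll synthesis genes 5 were lower at 24 h (against 17% of all genes). At 4 h 1 was higher and 1 lower (against 9.65% and 8.12%), and none had a called term (against 6.82%). The lower count at 4 h was 3 without BAP_4h replicate 3 and 2 without DMSO_4h replicate 1, and the higher call was lost in 9 of the 12 fits that left out 1 library.

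Of 13 hypoxia genes 2 were raised and 4 lowered at 4 h (against 9.65% and 8.12% of all genes), and 7 were raised and 1 lowered at 24 h (against 17.1% and 17%). The raised count at 4 h was 0 without BAP_4h replicate 1 and 1 without BAP_4h replicate 3, DMSO_4h replicate 2 or DMSO_4h replicate 3. The lowered count at 24 h was 3 without DMSO_24h replicate 3 and 2 without BAP_24h replicate 1 or replicate 3. The controls were called lower at 24 h in 8 of the 13, with a median log2 difference of -1.0. HB1 (AT2G16060), a haemoglobin induced by low oxygen, had 53.8, 29.9 and 39.1 CPM in DMSO_4h and 26.4, 27.8 and 25.5 in BAP_4h, and 5.04, 5.35 and 8.29 in DMSO_24h and 19.4, 13.5 and 13.4 in BAP_24h. BAP was the lower group at 4 h and the higher at 24 h, though both BAP groups lay between the control groups. Its log2FC was -0.62 ± 0.21 and 1.26 ± 0.25, a term of 1.88 ± 0.32 (adjusted p = 0.00597). The sucrose synthase gene SUS4 had a term of 0.74 ± 0.19, lost in 9 of the 12 fits that left out 1 library. In the fit of 12 libraries 2 of the 13 hypoxia genes had a called term (against 6.82% of all genes). In the fits that left out 1 library 1 to 3 had one, and a count of 1 is near that share.

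The JAZ, salicylic acid and defence, and clock lists had 1 called term each among 13, 12 and 19 genes tested. These shares are near the 6.82% of all genes. None of 13 JAZ repressor genes was called at 4 h and 2 were lower at 24 h, a share near the 17% of all genes. The 24-h count was 5 without BAP_24h replicate 1 or without both libraries rich in ribosomal RNA, 4 with the replicate block, and 1 without BAP_24h replicate 2 or 3, BAP_4h replicate 3, or DMSO_24h replicate 1 or 3. In the controls 10 were lower in DMSO_24h than in DMSO_4h with a median of -1.64. JAZ4 (AT1G48500) was the member with a called term. It had 12.5, 12.4 and 9.76 CPM in DMSO_4h, 12.9, 15.3 and 16.4 in BAP_4h, 13.4, 17.6 and 14.8 in DMSO_24h and 4.87, 7.72 and 6.88 in BAP_24h. Only BAP_24h stood apart, with a term of -1.60 ± 0.23 (adjusted p = 0.00265). Of 19 clock genes, 1 was lowered at 4 h and 4 at 24 h (against 8.12% and 17% of all genes), with 7 lowered at 24 h without DMSO_24h replicate 2 and 2 at 4 h without BAP_4h replicate 1 or DMSO_24h replicate 1, and in the controls 9 were higher and 6 lower at 24 h. PRR7 was the member with a called term, which was not called without both libraries rich in ribosomal RNA. It was at 65.6 to 73.6 CPM in DMSO_24h and 35.8 to 37.8 in BAP_24h. The term of -0.66 ± 0.14 (adjusted p = 0.0196) missed the threshold without BAP_24h replicate 3 (0.0522), BAP_4h replicate 2 (0.0537) or DMSO_24h replicate 2 (0.0555). Of 12 salicylic acid and defence genes, 3 were lowered at 4 h (against 8.12% of all genes), or 1 without DMSO_4h replicate 2. PAD4 and SAG101 were lowered at both times. NIMIN1 was raised at both times, and its 4-h call (0.60) was lost in 9 of the 12 fits that left out 1 library. PBS3, at or below 1.43 CPM in all libraries, had a term of 1.79 ± 0.49 that was lost in 10 of the 12 fits and with the replicate block (adjusted p = 0.0672).

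Beyond the lists, CYP78A8 (AT1G01190), a cytochrome P450 of the CYP78A family, had 39.1, 40.1 and 38.9 CPM in DMSO_4h and 45.2, 43.1 and 43.8 in BAP_4h, and 51.4, 52.2 and 45.7 in DMSO_24h and 16.2, 15.2 and 18.2 in BAP_24h. The 9 libraries other than BAP_24h were close together and BAP_24h was well below them, with a term of -1.75 ± 0.11 (adjusted p = 1.88e-05). CEP1, a cysteine endopeptidase gene, was at 7.91 to 11.9 CPM in DMSO_24h and 58.7 to 70.2 in BAP_24h, with no difference called at 4 h, and its term was 2.45 ± 0.20 (1.15e-04). AT4G02800, encoding a coiled-coil protein, was raised at both times with a term of 1.70 ± 0.14 (1.15e-04). AT1G65970, a thioredoxin-dependent peroxidase gene, had 47.4, 46.6 and 38.5 CPM in DMSO_4h, 21.4, 23.4 and 34.3 in BAP_4h, 201, 221 and 193 in DMSO_24h and 15.6, 11.7 and 14.9 in BAP_24h. It was lowered at both times while its controls were higher in the 24-h experiment, with a term of -3.11 ± 0.24 (9.19e-05). A gene overlaps it on the map, so its reads may be shared.

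Among called genes that averaged at least 5 CPM in some group, the most positive terms were those of AT1G13609 (5.33 ± 0.58), encoding a defensin-like peptide, and AT2G41810 (4.55 ± 0.69), a gene of unknown function in the annotation. AT1G13609 was at 0.561 to 1.45 CPM in DMSO_4h, 0.234 to 0.459 in BAP_4h, 0.136 to 0.805 in DMSO_24h and 6.51 to 10.8 in BAP_24h. AT2G41810 was at 0.12 to 0.315 CPM in DMSO_24h and 7.82 to 11.1 in BAP_24h, and AT5G20045, uncharacterised, at 0.136 to 0.478 and 7.66 to 7.92. All 3 were below 2 CPM at 4 h in each library. CWINV5, a cell wall invertase gene, was among the strongest late raised genes, with 13.8, 6.93 and 17.7 CPM in DMSO_24h and 105, 102 and 135 in BAP_24h and a term of 2.51 ± 0.41 (adjusted p = 0.00465). Late lowered genes with large effects, besides IRT1 and FRO2, were AT4G15990, uncharacterised, with a term of -2.94 ± 0.50, and AT4G24350, of the phosphorylase superfamily, with -2.27 ± 0.33.

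AT2G07741, annotated for subunit A of the ATPase F0 complex, had the most negative term (-10.58 ± 0.67), and its values are uncertain. It was at 131 to 227 CPM in DMSO_24h and 0 to 0.254 in BAP_24h, but it lies in a stretch of chromosome 2 with near-identical copies at AT2G07699, ATMG00410 and ATMG01170 of the mitochondrial genome. The 4 loci together summed to 2207 to 2511 CPM in DMSO_24h and 1954 to 1994 in BAP_24h, and no change is read from the values at the single locus.

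With the same minimum of 5 CPM, GDU5 (AT5G24920), a glutamine dumper gene of amino acid export, had the largest 4-h effect of the early transient raised genes. It was at 4.04, 1.14 and 2.21 CPM in DMSO_4h and 10.8, 13.9 and 14.9 in BAP_4h, and at 2.32, 4.83 and 6.58 in DMSO_24h and 1.42, 3.70 and 1.74 in BAP_24h. The groups were apart at 4 h and overlapped at 24 h, with log2FC values of 2.45 ± 0.41 and -1.08 ± 0.46 and a term of -3.53 ± 0.62 (adjusted p = 0.00685). CYP78A6, another CYP78A gene, went from 4.34, 3.65 and 3.31 to 9.46, 14.7 and 11.3 CPM at 4 h and from 5.72, 4.41 and 5.90 to 5.84, 7.76 and 5.75 CPM at 24 h, a term of -1.35 ± 0.27 (0.0133). Its groups were apart at 4 h and overlapped at 24 h. AT3G13404, uncharacterised, and CYP87A2, a further P450, had terms of -1.76 ± 0.32 and -1.63 ± 0.41, the last lost in 9 of the 12 fits that left out 1 library.

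Early transient lowered genes were led by AT1G52700, a hydrolase gene, at -2.18 after 4 h and -0.47 after 24 h. ATC (AT2G27550), a relative of the flowering gene FT that acts as a floral inhibitor, had 27.9, 24.8 and 23.5 CPM in DMSO_4h, 9.87, 9.21 and 4.67 in BAP_4h, 9.0, 12.6 and 10.6 in DMSO_24h and 13.1, 16.4 and 18.4 in BAP_24h. BAP was below DMSO at 4 h and above it at 24 h, where the log2FC of 0.54 ± 0.23 was not called, and the term was 2.21 ± 0.32 (adjusted p = 0.00241). XTH15, a wall-modifying enzyme gene, and AT2G46420, a helicase-like gene, followed with terms of 1.25 ± 0.23 and 1.07 ± 0.21.

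Sustained genes were ranked by the smaller of their 4-h and 24-h effects. This choice favours genes with large values at both times, so no likeness of the times is read from those named. AT5G26220, of the ChaC-like family of glutathione-degrading enzymes, was at 5.82, 4.67 and 3.86 CPM in DMSO_4h, 56.8, 53.4 and 64.0 in BAP_4h, 14.7, 10.3 and 22.3 in DMSO_24h and 204, 198 and 167 in BAP_24h. Its level was higher in both arms at 24 h while the log2FC was 3.6 ± 0.24 and 3.58 ± 0.24. AT1G34520, an acyltransferase gene, had 5.39 and 5.18, and AT2G25150, of another acyltransferase family, 4.05 and 3.84. CIB1, a bHLH factor that binds cryptochrome, was at 0 counts in all DMSO_4h libraries and at least 12.7-fold higher with BAP at 4 h, taking 3 counts a library as the floor, and held 0.409 to 1.51 CPM with DMSO and 12.7 to 17.8 with BAP at 24 h. It overlaps AT4G34540, with which it shares sequence.

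On the lowered side, GSTF14 (AT1G49860), a glutathione transferase gene, went from 170.4, 211 and 182 to 21.5, 17.2 and 16.7 CPM at 4 h and from 157, 146 and 198 to 0.914, 2.73 and 2.55 CPM at 24 h. Its decrease deepened from -3.34 ± 0.22 to -6.31 ± 0.28, a term of -2.97 ± 0.33 (adjusted p = 9.30e-04). The transporter genes OCT1, UMAMIT17 and UMAMIT36 had 4-h values of -5.58, -3.51 and -3.17 and 24-h values of -3.45, -3.41 and -5.30. Of these UMAMIT36 had a called term of -2.13 ± 0.58, lost in 9 of the 12 fits. AT1G49470, of unknown function, had log2FC values of -3.03 and -3.41.

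The 20 reversed genes, picked out after their values were seen, included RVE2 (AT5G37260), a MYB-like gene related to the clock factors. It had 19.3, 18.7 and 14 CPM in DMSO_4h, 12.3, 10.4 and 8.17 in BAP_4h, 9.68, 9.86 and 10.7 in DMSO_24h and 20.05, 14.9 and 18.3 in BAP_24h. BAP was the lower group at 4 h and the higher at 24 h, and BAP at each time resembled DMSO at the other, with a term of 1.55 ± 0.23 (adjusted p = 0.00306). XTH24, PLA2A and ALMT1, which encode a wall enzyme, a lipid acyl hydrolase and a malate channel, went the same way with terms of 1.90 ± 0.23, 2.33 ± 0.27 and 1.38 ± 0.22, as did AT2G14247 with 2.80 ± 0.45. GLL22, PLC1 and PUB18, a lipase-like gene, a phospholipase C gene and a ubiquitin ligase gene, went from raised to lowered with terms of -1.63 ± 0.27, -1.36 ± 0.24 and -1.56 ± 0.35. The call of PUB18 was lost without BAP_24h replicate 2 (adjusted p = 0.0529), BAP_4h replicate 2 (0.0577) or DMSO_24h replicate 2 (0.0659). In the controls 9 of the 13 genes that went from lowered to raised were lower at 24 h, and 5 of the 7 that went from raised to lowered were higher.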

How the data were processed

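RNA of main root segments was freed of ribosomal RNA with a plant removal kit before stranded libraries were made. Per the labels and the study's methods, the authors trimmed reads with Trimmomatic 0.36 and quantified them with kallisto 0.43.0 on a reference transcriptome, and deposited estimated counts per gene, whole in the table used here. The strand option is not given in the sources used here. Groups were taken from the sample titles. The deposited estimated counts of the 12 libraries were fitted with edgeR 4.0.16 in R 4.3.3 (quasi-likelihood F-test, 4 group means, TMM scaling, filterByExpr with a minimum count of 10). CPM are counts scaled to the effective library size. Calls needed an adjusted p (Benjamini-Hochberg) of at most 0.05 and, at a single time, an absolute log2FC of at least 0.5, and the term needed the adjusted p alone. SE are the log2FC divided by the root of F. The libraries were called replicates because the experiment was repeated, and nothing in the labels states which shared a repeat. Correlations of deviations pair the numbers at 24 h (all above 0.1) but not at 4 h, from the counts and not from the labels, so the block is an alternative. The other alternatives were RLE scaling, no filter, DESeq2 1.42.0, a fit of all 24 libraries, removal of ribosomal RNA and organelle genes, thinned depth, left-out libraries, other cutoffs and fits of 1 time alone. Symbols and promoters come from RefSeq's TAIR10.1, which matched 33437 of 34212 gene IDs, and near-identical copies were found with blastn 2.17.0 (at least 95% identity over 50% of the length). On simulated counts for 21540 genes the term fit found 52% of 100 genes with a term of 1 and 84% of 100 with a term of 2, with 8 false among 144 calls. No other simulated gene had a BAP or time effect. The adjusted p cutoff was therefore reached under other conditions than in the data, and these shares are not its detection rates.

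Named genes were AXR3, all type-A ARR genes, the 3 members of each other list with the smallest p of the term and all with a called term, the 5 largest and smallest terms, the 5 smallest p, the 5 largest effects per class (mean of at least 5 CPM in the highest group, groups not overlapping), and genes the study names. Effects were ranked at 4 h for transient genes, at 24 h for late genes and by the smaller of both times for sustained genes. Values of some other list members were added for context. The reversed genes were added after their values were seen. The members and lists were chosen with earlier results of these data known.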

Additional observations from a re-analysis of the deposited data

Results flagged for a closer look

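The effect of BAP differed between the times, by the test of the term itself, for 686 genes with a positive and 795 genes with a negative term. Those named in the text are given here with their terms in log2 units, from the edgeR test with an adjusted p of at most 0.05.

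Positive terms in the mitosis list were those of HINKEL (1.68), KNOLLE (1.61), AUR2 (1.6), CYCB1;3 (1.57), TPX2 (1.57), CYCB2;4 (1.55), AUR1 (1.54), CDC20.1 (1.50), CYCB1;2 (1.44), CYCB1;4 (1.39), CYCB1;1 (1.34), CYCB2;1 (1.34), CYCB2;2 (1.27), PLEIADE (1.18), CYCB2;3 (1.11), CDKB2;1 (1.06), CDKB2;2 (0.99), CYCA1;1 (0.93) and CDKB1;1 (0.70). In the other lists they were those of BHLH38 (4.24), AT1G47400 (4.19), AT1G47395 (3.95), OPT3 (2.17), HB1 (1.88), PBS3 (1.79), PIP2;7 (0.99), TIP1;1 (0.89), PLT3 (0.77), SUS4 (0.74) and PIP1;3 (0.64).

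Negative terms in the lists were those of IRT1 (-4.15), FRO2 (-3.72), TIP2;2 (-2.29), AMT1;2 (-1.96), NRT1.5 (-1.82), FER1 (-1.78), AMT1;3 (-1.73), CYP735A1 (-1.73), JAZ4 (-1.6), FIT (-1.41), CRF6 (-1.21), EXPA15 (-1.15), CKX4 (-1.06), LBD4 (-1.06), PIN5 (-1.03), NRT3.1 (-0.98), GH3.5 (-0.96), PIP1;1 (-0.83), PIP1;5 (-0.83), DOF1.6 (-0.77), NRT1.1 (-0.75), AHP1 (-0.72), PRR7 (-0.66), AHK4 (-0.61), SHY2 (-0.59), XCP2 (-0.52) and XCP1 (-0.46).

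Outside the lists the positive terms named were those of AT1G13609 (5.33), AT2G41810 (4.55), AT5G20045 (3.96), AT2G14247 (2.80), CWINV5 (2.51), CEP1 (2.45), PLA2A (2.33), ATC (2.21), XTH24 (1.90), AT1G52700 (1.71), AT4G02800 (1.70), RVE2 (1.55), ALMT1 (1.38), XTH15 (1.25) and AT2G46420 (1.07). The negative terms were those of AT2G07741 (-10.58, uncertain because of its copies), GDU5 (-3.53), AT1G65970 (-3.11), GSTF14 (-2.97), AT4G15990 (-2.94), AT4G24350 (-2.27), UMAMIT36 (-2.13), AT3G13404 (-1.76), CYP78A8 (-1.75), CYP87A2 (-1.63), GLL22 (-1.63), PUB18 (-1.56), PLC1 (-1.36) and CYP78A6 (-1.35). With 3 libraries a group, single libraries were not tested as outliers.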

How the results depend on the processing

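No named gene had a term of the opposite sign that was called under any alternative. Of the 86 genes named with a called term, 58 were called in all alternatives, 63 in all fits that left out 1 library and 70 without the 2 libraries of 24 h rich in ribosomal RNA. Without those 2 libraries the counts were 365 positive and 444 negative terms, 208 late raised and 230 late lowered genes, 16 early transient lowered genes and 4 reversed from raised to lowered. With libraries thinned to the lowest nuclear total there were 434 positive terms and 24 early transient raised genes. The DESeq2 Wald test gave 43 early transient lowered and 642 late lowered genes. With a log2 cutoff of 1 there were 22 and 9 early transient, 364 and 437 sustained, and 0 and 4 reversed genes, raised at 4 h before lowered. When each library was left out in turn, positive terms ranged from 326 to 745 and negative terms from 423 to 800. Under the same fits the 4-h counts were 1808 to 2202 higher and 1478 to 1891 lower, and the 24-h counts 3319 to 3867 and 3403 to 3738. Early transient counts were 19 to 62 raised and 14 to 40 lowered, late counts 214 to 429 and 191 to 457, sustained counts 1520 to 1870 and 1186 to 1496, and reversed counts 3 to 12 and 7 to 20. The cause of these shifts was not tested. Positive calls made up 46.3% of called terms, against 44.4% to 45.8% with other scalings. The term had an unadjusted p under 0.05 in 4983 genes. A simulated term of 1 log2 unit was found in 52% of genes with 3 libraries a group. Far fewer genes held a term in that simulation than were called here, so this share does not carry over to the data.

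With the replicate number within each time as a block, the terms called were 911 positive and 1146 negative and the late lowered genes 642. Same-numbered DMSO and BAP libraries deviated together at 24 h (r of 0.199, 0.115 and 0.145) and less evenly at 4 h (0.275, 0.183 and 0.0936). With the block 6 of the 86 named terms were no longer called, as given beside those genes.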
